A study of Mus musculus with 6 samples.

Results

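The phagocyte NADPH oxidase was followed through 5 transcripts: Cybb and Cyba, which encode the membrane chains, Ncf1 and Ncf4, which encode cytosolic subunits, and Hvcn1, which encodes the voltage-gated proton channel that works beside the enzyme. They were taken by name from a table of 51789 mouse genes, and all 5 passed the filter on low counts that left 10397 genes for testing. The libraries came from bone marrow neutrophils that had been pulled out with beads against Ly6G, a neutrophil surface protein, at a stated purity above 95%. There were 3 libraries labelled knockout (KO) for Snph and 3 labelled wild type (WT). Snph encodes syntaphilin, a protein that tethers mitochondria to microtubules, and the series title concerns neutrophil migration in cancer. No treatment is given for either group. Strain, age, sex, the deleted part of Snph and whether each library came from a separate animal are not given in the labels, so p-values describe the spread between these libraries, which may be technical.

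The oxidase moves electrons from NADPH in the cytosol across a membrane to oxygen, and the superoxide it makes feeds the oxidants with which neutrophils kill microbes. In resting cells its parts are kept apart. The gp91phox chain (Cybb), which carries the haem groups and the NADPH site, sits in the membrane with the p22phox chain (Cyba), and each chain is needed for the other to be stable. On activation p47phox (Ncf1) is phosphorylated and docks on p22phox with the other cytosolic parts and the GTPase Rac. The p40phox subunit (Ncf4) binds a phosphoinositide of the phagosome membrane. The proton channel (Hvcn1) lets protons follow the electrons, which balances charge and cytosolic pH. Inherited loss of oxidase subunits causes chronic granulomatous disease in humans.

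The start regions of Cybb and Cyba are shown because their products form 1 heterodimer while their transcripts were present at unequal levels, and because the ratio of these transcripts is described further on. Both are from RefSeq on GRCm38.p6, the assembly that mm10 names, and run 5′ to 3′ on the gene's strand from 250 bases before the RefSeq start to 30 bases after it. Capitals mark CCAAT and GAGGAA, the second a core of sites for PU.1, a myeloid transcription factor; both strands were searched, and GAGGAA reads as TTCCTC where it lies on the other strand.
Cybb (chrX:9469295-9469574, minus strand): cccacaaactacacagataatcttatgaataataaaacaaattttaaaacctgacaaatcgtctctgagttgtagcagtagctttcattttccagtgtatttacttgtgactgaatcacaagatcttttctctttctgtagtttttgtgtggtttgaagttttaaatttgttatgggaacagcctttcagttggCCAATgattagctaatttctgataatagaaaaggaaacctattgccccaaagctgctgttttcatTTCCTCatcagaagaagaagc
Cyba (chr8:122432911-122433190, minus strand): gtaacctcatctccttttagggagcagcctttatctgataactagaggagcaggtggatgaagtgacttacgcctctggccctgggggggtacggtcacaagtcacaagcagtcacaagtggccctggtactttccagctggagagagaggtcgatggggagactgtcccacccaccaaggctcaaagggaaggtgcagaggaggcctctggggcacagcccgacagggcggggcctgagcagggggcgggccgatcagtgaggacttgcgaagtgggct
The Cybb window held 1 CCAAT, whose first base lay at -56 from the start, and 1 GAGGAA on the other strand, whose first printed base was base 10 of the transcript. The Cyba window held neither, nor did the window of Ncf1. Among 32851 windows of the same length, 36.1% held CCAAT and 26.0% held GAGGAA, so these matches are common and describe only the letters. Ncf4 and Hvcn1 were matched to no window.

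Cybb (ENSMUSG00000015340) lies on chromosome X, 9435252 to 9487771 (minus strand, GENCODE vM21, GRCm38), a span that begins upstream of the RefSeq start used above. Cyba (ENSMUSG00000006519) lies on chromosome 8, 122424776 to 122432930 (minus strand). Ncf1 (ENSMUSG00000015950) and Hvcn1 (ENSMUSG00000064267) are both on chromosome 5, the first at 134220053 to 134229625 (minus strand) and the second at 122206804 to 122242297 (plus strand). Ncf4 (ENSMUSG00000071715) lies on chromosome 15, 78244801 to 78262580 (plus strand). All 5 are protein-coding, and no exon of theirs overlapped a gene on the same strand. Exons of Ncf1 overlap Gtf2ird2 and exons of Hvcn1 overlap Tctn1, each on the opposite strand, and whether the counting used strand is not stated in the sources used here. Gtf2ird2 had 3 to 11 counts per library. Tctn1 averaged 7.41 ± 1.1 CPM in KO-labelled and 5.97 ± 1.25 CPM in WT-labelled libraries (SD, n = 3 each). If the counting ignored strand, reads of Ncf1 and Hvcn1 could not be told apart from those of these partners where exons overlap.

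Total counts ran from 7018388 to 9664381 per library, and 1 count was worth 0.103 to 0.142 CPM (counts per 1e6). On the first principal component of all tested genes (27.9% of the variance), KO 3 lay at -3.91. WT-labelled libraries lay at -18.3 to -13.2, and KO 1 and KO 2 at 23.5 and 29.2. KO 3 was thus nearer to the WT-labelled libraries than to the other KO-labelled ones. The targeted gene went against the labels: Snph had 5, 2 and 8 counts in KO 1, 2 and 3 and 0 counts in each WT-labelled library, where a floor of 3 counts is 0.31 to 0.427 CPM. An exact two-sided permutation test of its level gave p = 0.1, the smallest that 3 against 3 libraries allow. Directions therefore rest on the labels as they stand, and the libraries are called KO-labelled and WT-labelled throughout.

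None of the 5 oxidase transcripts differed between the groups after adjustment over all genes tested (edgeR quasi-likelihood test, Benjamini-Hochberg adjusted p of 0.291 to 0.739). Across all genes 107 of 10397 were called, or 1.03%, with 82 (0.789%) lower and 25 (0.24%) higher in KO-labelled libraries. Scaled to total counts alone, 144 were lower and 18 higher. DESeq2 and limma-voom also called 0 of the 5. At an unadjusted p under 0.05, 2 of the 5 passed (Hvcn1 and Ncf4, in opposite directions), against 11.4% of all genes. The same 2 had no overlap between groups, a property of 16.8% of all genes tested. The estimates were small: 3 of the 5 were above 0 and 2 below, from -0.27 for Hvcn1 to 0.21 for Ncf4 on the log2 scale, beside a median of 0.006 over all genes tested.

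**Figure D1:**
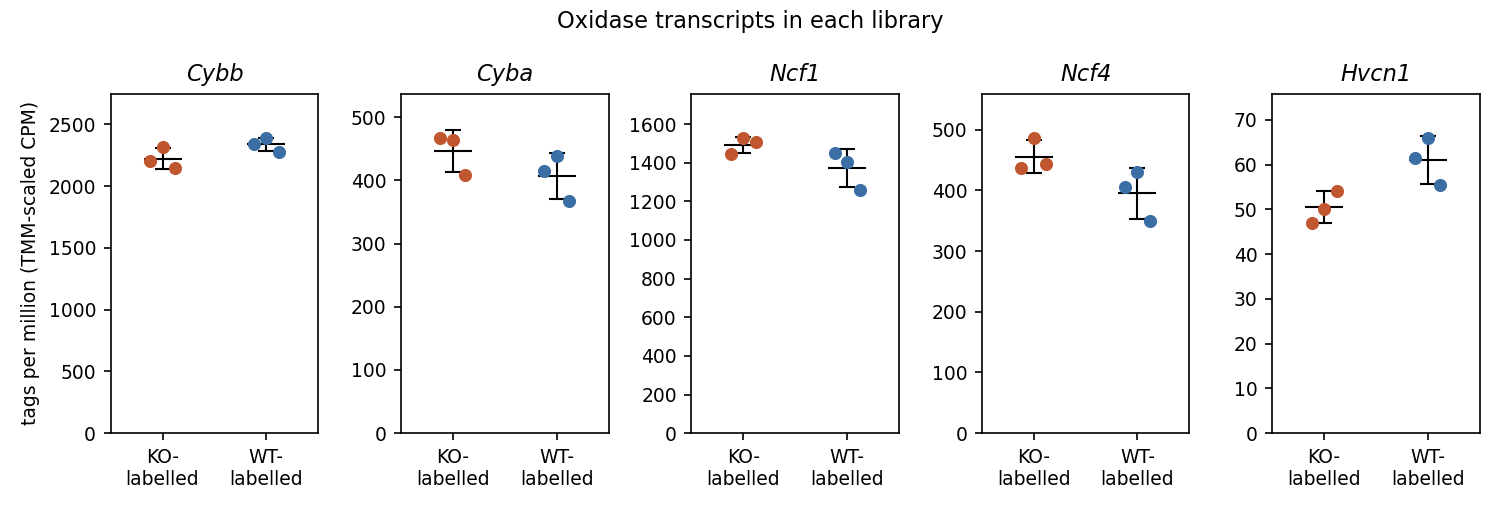
TMM-scaled CPM (vertical axis, from 0) of the 5 oxidase transcripts, with a point per library, KO-labelled libraries left and WT-labelled right, and mean and SD as black bars (n = 3 each). The points of both groups interleave for Cybb, Cyba and Ncf1, while those of Ncf4 (437.4 to 486.8 CPM against 349.3 to 431.1) and Hvcn1 (47.04 to 54.23 CPM against 55.39 to 66.01) are separated by narrow gaps.

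Cybb was the most abundant of the 5 transcripts. It stood at 2199, 2317 and 2148 CPM in KO 1, 2 and 3 and at 2341, 2390 and 2279 CPM in WT 1, 2 and 3. KO 2 lay inside the WT-labelled range and the other KO-labelled libraries below it, so the groups overlapped. The means were 2221 ± 87 CPM in KO-labelled and 2336 ± 55.9 CPM in WT-labelled libraries (SD, n = 3 each). The log2 fold change was -0.07 (SE 0.06, 95% interval -0.21 to 0.06, adjusted p = 0.739), an interval that spans a level 13.3% lower to 4.26% higher. With 15757 to 23391 counts per library, Cybb ranked 24th to 31st among the genes tested, and its counting error was under 1% in each library.

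Cyba, the partner chain, was far less abundant by tag count. It stood at 467.2, 463.8 and 407.9 CPM in KO 1, 2 and 3 and at 414.3, 437.7 and 366.6 CPM in WT 1, 2 and 3. KO 1 and KO 2 lay above every WT-labelled library, and KO 3 lay below WT 1 and WT 2. The means were 446.3 ± 33.3 CPM in KO-labelled and 406.2 ± 36.3 CPM in WT-labelled libraries (SD, n = 3 each), with a log2 fold change of 0.14 (SE 0.09, 95% interval -0.05 to 0.32, adjusted p = 0.618).

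Ncf1, whose product carries the docking step, was the second most abundant. It stood at 1444, 1529 and 1505 CPM in KO 1, 2 and 3 and at 1452, 1406 and 1261 CPM in WT 1, 2 and 3. The groups overlapped only because KO 1 lay just under WT 1, and WT 3 was the lowest library. The means were 1492 ± 43.5 CPM in KO-labelled and 1373 ± 99.5 CPM in WT-labelled libraries (SD, n = 3 each), with a log2 fold change of 0.12 (SE 0.07, 95% interval -0.03 to 0.27, adjusted p = 0.571).

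Ncf4, the phosphoinositide-binding subunit, stood at 437.4, 486.8 and 443.4 CPM in KO 1, 2 and 3 and at 405.1, 431.1 and 349.3 CPM in WT 1, 2 and 3. Every KO-labelled library lay above every WT-labelled one, by a gap between KO 1 and WT 2 that was smaller than the SD of either group. Groups that do not overlap in this direction were found for 7.48% of all genes tested. The means were 455.9 ± 26.9 CPM in KO-labelled and 395.2 ± 41.8 CPM in WT-labelled libraries (SD, n = 3 each). The log2 fold change was 0.21 (SE 0.09, 95% interval 0.02 to 0.39, unadjusted p = 0.0329, adjusted p = 0.38 by edgeR), and the difference did not pass the threshold.

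Hvcn1, the proton channel, was the least abundant of the 5 and stood at 47.04, 50.15 and 54.23 CPM in KO 1, 2 and 3 and at 61.58, 66.01 and 55.39 CPM in WT 1, 2 and 3. Every KO-labelled library lay below every WT-labelled one, with KO 3 and WT 3 close together. Groups that do not overlap in this direction were found for 9.32% of all genes tested. The means were 50.47 ± 3.61 CPM in KO-labelled and 60.99 ± 5.34 CPM in WT-labelled libraries (SD, n = 3 each). The log2 fold change was -0.27 (SE 0.10, 95% interval -0.49 to -0.06, unadjusted p = 0.016, adjusted p = 0.291 by edgeR), which also missed the threshold. Its 341 to 646 counts per library carry a counting error of 3.93% to 5.42%, the largest of the 5, beside a spread between libraries of 7.14% in KO-labelled and 8.75% in WT-labelled libraries.

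**Figure D2:**
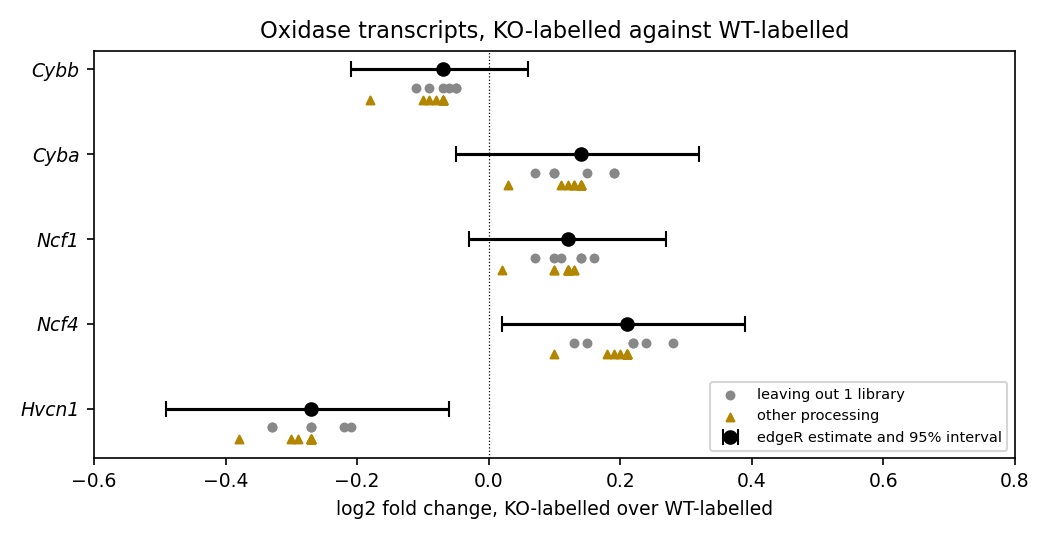
Log2 fold change of each oxidase transcript, KO-labelled over WT-labelled (horizontal axis), as the edgeR estimate with its 95% interval (black), the fits that each leave out 1 library (grey circles) and the other processing alternatives (triangles). The intervals of Cybb, Cyba and Ncf1 cross 0, those of Ncf4 and Hvcn1 do not before adjustment over all genes, and no alternative moves an estimate across 0.

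Leaving out each library in turn, the log2 estimate ran from -0.11 to -0.05 for Cybb, 0.07 to 0.19 for Cyba, 0.07 to 0.16 for Ncf1, 0.13 to 0.28 for Ncf4 and -0.33 to -0.21 for Hvcn1. Without KO 3, the KO-labelled library nearest to the WT-labelled ones on the first principal component, the values were -0.05, 0.19, 0.11, 0.22 and -0.33 in the same gene order. Scaling to total counts alone moved the median of all genes from 0.006 to -0.10 on the log2 scale. The estimates were then -0.18 for Cybb, 0.03 for Cyba, 0.02 for Ncf1, 0.10 for Ncf4 and -0.38 for Hvcn1 (adjusted p = 0.0884 by edgeR), so the values of Cyba and Ncf1 above 0 depend on the scaling for most of their size.

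In every library the tag counts ran from high to low in the order Cybb, Ncf1, then Cyba and Ncf4, then Hvcn1. The tags come from the 3′ end of transcripts, about 1 for each transcript, so counts of different genes were compared without dividing by length; how well each 3′ end is captured can still differ between genes. Cyba and Ncf4 did not differ beyond their spread: their count ratio was 1.07, 0.953 and 0.92 in KO 1, 2 and 3 and 1.02, 1.02 and 1.05 in WT 1, 2 and 3. Together the 5 transcripts took 0.442% to 0.459% of all counts in KO-labelled and 0.456% to 0.483% in WT-labelled libraries. TMM-scaled, their sum was 4558 to 4847 CPM in KO-labelled and 4311 to 4730 CPM in WT-labelled libraries. The lower share in KO-labelled libraries therefore depends on the scaling. Cybb alone made up 47.1% to 47.9% of the counts of the 5 in KO-labelled and 50.1% to 52.9% in WT-labelled libraries.

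Ratios between transcripts of 1 library need no scaling between libraries. Cybb had 4.71, 5 and 5.27 counts per count of its partner Cyba in KO 1, 2 and 3 and 5.65, 5.46 and 6.22 in WT 1, 2 and 3. All KO-labelled libraries were lower in this ratio. Per count of Ncf1, Cybb had 1.52, 1.52 and 1.43 counts in KO 1, 2 and 3 and 1.61, 1.7 and 1.81 in WT 1, 2 and 3, again without overlap. Per count of Hvcn1, Cybb had 46.7, 46.2 and 39.6 counts in KO 1, 2 and 3 and 38, 36.2 and 41.1 in WT 1, 2 and 3, a ratio with the higher mean in KO-labelled libraries and groups that overlap. The ratio of Ncf1 to Ncf4, both cytosolic subunits, overlapped, at 3.14 to 3.39 in KO-labelled and 3.26 to 3.61 in WT-labelled libraries. These ratios were picked from the same values as the levels above and are given as a description with no test. Groups did not overlap for 16.8% of single genes tested, and how often ratios of other gene pairs separate the groups was not counted.

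**Figure D3:**
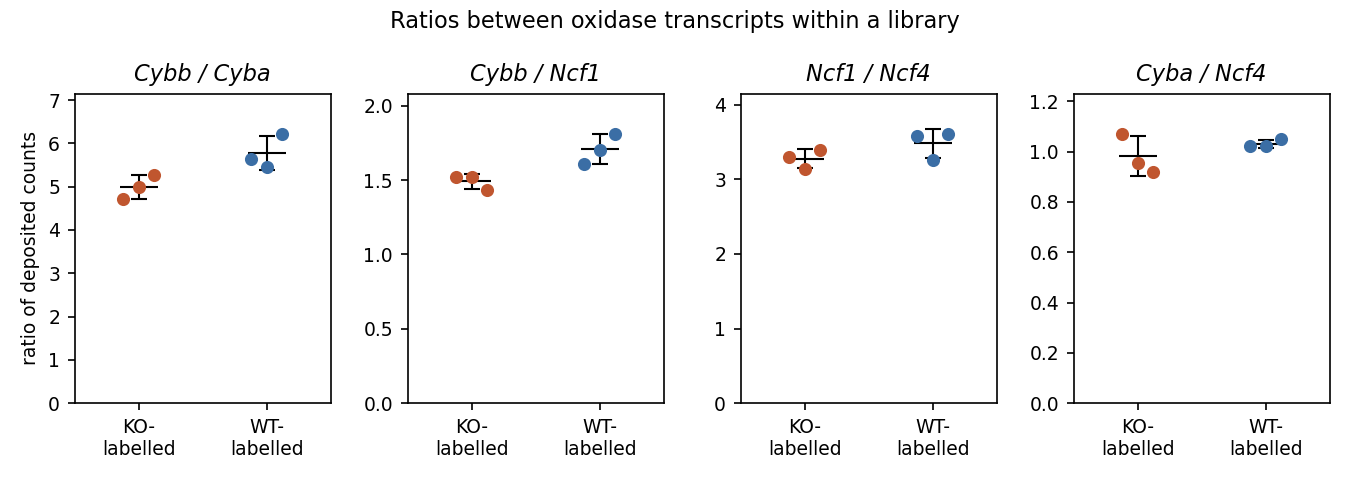
Ratios of deposited counts within each library (vertical axes, from 0) for 4 pairs of oxidase transcripts, KO-labelled left and WT-labelled right, with mean and SD as black bars (n = 3 each). Cybb per Cyba (4.71 to 5.27 against 5.46 to 6.22) and Cybb per Ncf1 (1.43 to 1.52 against 1.61 to 1.81) separate the groups. Ncf1 per Ncf4 and Cyba per Ncf4 do not. How often ratios of other gene pairs separate the groups was not counted.

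Over the 6 libraries, log2 CPM of Ncf1 and Ncf4 ran in parallel (Pearson r = 0.92), as did Cyba with Ncf4 (r = 0.86) and Cyba with Ncf1 (r = 0.71). Cybb did not follow them, with r of 0.07 with Cyba, -0.19 with Ncf1 and -0.08 with Ncf4, and was nearest to Hvcn1 (r = 0.66). These are descriptions over 6 libraries that share their scaling and their group difference. Each profile was compared with those of 2334 other genes that averaged 50 CPM or more. Predicted gene models (Gm and Rik names), genes encoded in mitochondria, pseudogenes and genes without a name or annotated type were left out. Among these 2334, the profile most like that of Cyba was that of Pgd (r = 0.999), followed by Qsox1 (r = 0.996). Pgd encodes the pentose phosphate enzyme that makes NADPH. Ncf4 was most like Slpi, a protease inhibitor of neutrophils (r = 0.997), and R3hdm4 (r = 0.993). Ncf1 was most like the tyrosine kinase gene Ptk2b (r = 0.99) and Mbp (r = 0.984), Cybb like Fam53b (r = 0.981) and Atrx (r = 0.961), and Hvcn1 like Dgat2 (r = 0.992) and Rapgef6 (r = 0.979). Such rankings over 6 libraries are a description only.

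No other catalytic subunit of the NADPH oxidase family was seen in these cells. Nox1, Nox3, Nox4, Duox1 and Duox2, the maturation factors Duoxa1 and Duoxa2 and the activator Noxa1 had 0 counts in all 6 libraries, which at 48634419 counts in all allows up to 0.0617 CPM (3 counts). Noxo1, an organizer related to Ncf1, had 2 counts in the KO-labelled and 8 in the WT-labelled libraries together. Floors cover counting error only.

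Among genes for assembly, the Rac switch and priming kinases, 1 of 28 was called higher and 0 lower, and 4 had an unadjusted p under 0.05 by edgeR, with a list median of 0.08 on the log2 scale beside 0.006 over all genes. The called gene was S100a8, whose product with that of S100a9 forms calprotectin, a partner that delivers arachidonic acid to the oxidase. S100a8 averaged 137200 ± 6260 CPM in KO-labelled and 116000 ± 6650 CPM in WT-labelled libraries (SD, n = 3 each; log2 0.24, SE 0.05, adjusted p = 0.0315). The call ended without KO 1, KO 2, WT 1 or WT 3 (adjusted p = 0.102, 0.127, 0.144 and 0.0617) and with scaling to total counts (0.097) or upper-quartile factors (0.0502). S100a9 was at 0.20 (adjusted p = 0.0518 by edgeR). Of the 28 genes limma-voom called 2 and DESeq2 1 (S100a8). Rac2, the Rac GTPase of blood cells that the oxidase needs in mouse neutrophils, was named after its values were seen and did not pass. It stood at 2211 ± 87.9 CPM in KO-labelled and 2000 ± 135 CPM in WT-labelled libraries (SD, n = 3 each; log2 0.14, SE 0.07, adjusted p = 0.448), a level close to that of Cybb.

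Of 13 genes for maturation of the membrane chains, haem supply and turnover, 0 were called by edgeR or limma-voom, 1 (Hmox1) by DESeq2 and 1 at an unadjusted p under 0.05 by edgeR, and the list median was -0.09. Hmox1, the stress-induced haem oxygenase that macrophages also express, had the smallest p, with 45.89 ± 10.2 CPM in KO-labelled and 66.86 ± 7.41 CPM in WT-labelled libraries (SD, n = 3 each; log2 -0.54, SE 0.14, adjusted p = 0.0963). The chaperone genes Hsp90ab1 (log2 -0.15, adjusted p = 0.528) and Hsp90aa1 (-0.12, adjusted p = 0.681) were the most abundant. Cybc1, whose product is needed for stable gp91phox and p22phox, was also named after its values were seen. It stood at 114.5 ± 3.26 CPM in KO-labelled and 103 ± 9.35 CPM in WT-labelled libraries (SD, n = 3 each; log2 0.15, SE 0.09, adjusted p = 0.551).

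Among transcription factors known to act on oxidase genes, 1 of 15 tested was called, lower, and 3 had an unadjusted p under 0.05 by edgeR, with a list median of 0.11. It was Irf8, a factor of monocyte and macrophage development that in human myeloid cells acts with PU.1 on the Cybb gene, at 18.6, 15.59 and 17.85 CPM in KO 1, 2 and 3 and 37.54, 33.11 and 34.36 CPM in WT 1, 2 and 3. The groups were well apart (log2 -1.01, SE 0.13, adjusted p = 0.00104), and the call held in all 16 alternatives. Irf1 was at 0.29 (adjusted p = 0.194). Spi1, which encodes PU.1, averaged 579.6 ± 52.9 CPM in KO-labelled and 526 ± 49.2 CPM in WT-labelled libraries (SD, n = 3 each; log2 0.14, SE 0.09, adjusted p = 0.615). Cebpd, the second most abundant of the list, was at 0.20 (adjusted p = 0.311).

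In the NADPH supply list 0 of 11 tested genes were called by edgeR, DESeq2 or limma-voom and 2 had an unadjusted p under 0.05 (median 0.07). Taldo1, a pentose phosphate enzyme and the most abundant, averaged 1750 ± 79.5 CPM in KO-labelled and 1533 ± 36.1 CPM in WT-labelled libraries (SD, n = 3 each; log2 0.19, SE 0.07, adjusted p = 0.238), and Pgd was at 0.14 (adjusted p = 0.572). The mitochondrial isocitrate dehydrogenase gene Idh2 was at -0.74 (adjusted p = 0.138). In the list on charge, pH and chloride balance, which holds genes that act beside Hvcn1, 0 of 11 tested genes were called by any of the 3 tools and 0 had an unadjusted p under 0.05 by edgeR (median -0.07). Its members with the smallest p, Clcn5 (log2 -0.33) and Slc4a2 (-0.17), had adjusted p of 0.571 and 0.753, and the proton pump subunit genes Atp6v1b2 (-0.08) and Atp6v1a (0.03) were the most abundant.

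Among genes that use or remove oxidants, 1 of 14 tested was called, lower, and 6 had an unadjusted p under 0.05 by edgeR. All genes tested had shares of 1.03% and 11.4%, and the list median was -0.13. Prdx1, a peroxide-reducing enzyme, stood at 67.66, 64.86 and 70.75 CPM in KO 1, 2 and 3 and 92.86, 112.6 and 102.6 CPM in WT 1, 2 and 3. The groups were apart (log2 -0.60, SE 0.09, adjusted p = 0.00408), and the call ended without WT 2 (adjusted p = 0.0524). Prdx5 (1868 ± 18.6 CPM in KO-labelled and 1639 ± 85.3 CPM in WT-labelled libraries, SD, n = 3 each; log2 0.19, adjusted p = 0.244) and Gpx1 (log2 0.03, adjusted p = 0.921) were the most abundant. Mpo, whose product turns hydrogen peroxide into hypochlorous acid and which is transcribed mainly in precursors, was at -0.59 (SE 0.19, adjusted p = 0.193).

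**Figure D4:**
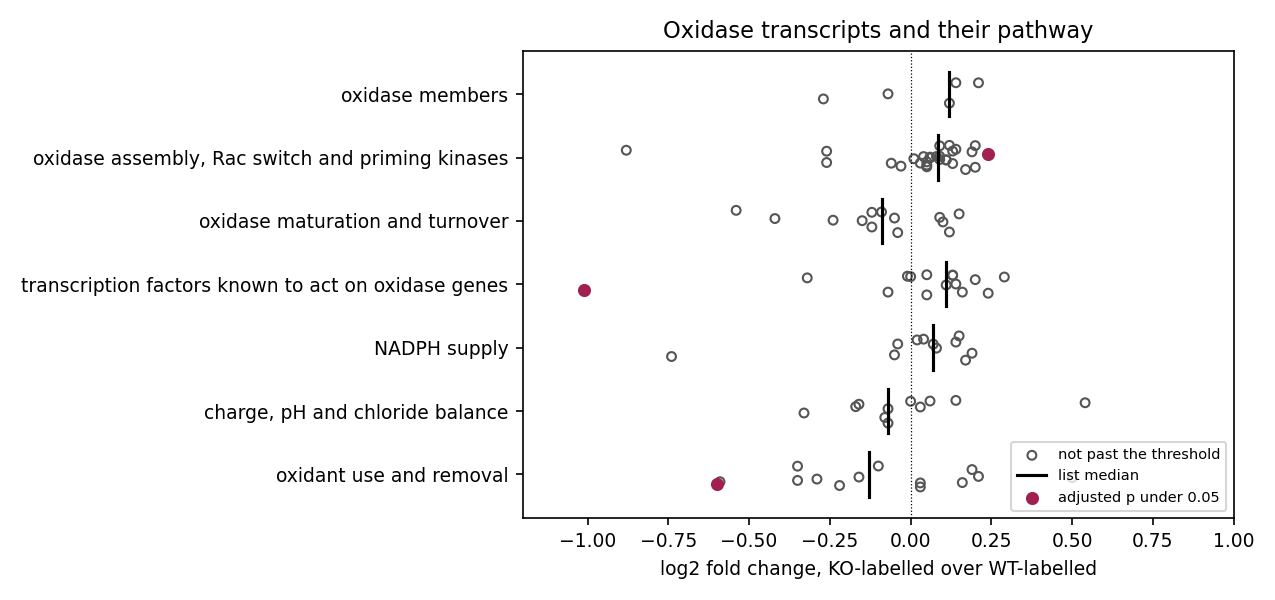
Log2 fold changes, KO-labelled over WT-labelled (horizontal axis), of every tested gene in the oxidase set and in 6 pathway lists, with list medians as black lines and genes at an adjusted p under 0.05 filled. The filled genes are S100a8 (0.24), Irf8 (-1.01) and Prdx1 (-0.60), and none is an oxidase member.

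The cell type labels were checked against markers. Neutrophil genes dominated: their summed level over 13 genes was 328400 to 350300 CPM in KO-labelled and 287200 to 308900 CPM in WT-labelled libraries. That sum mainly follows S100a8 and S100a9, at 137200 and 113200 CPM on average in KO-labelled and 116000 and 98770 CPM in WT-labelled libraries. Of these 13, S100a8 and Retnlg (log2 0.35, adjusted p = 0.00498) were called higher by edgeR, and limma-voom called 3. By edgeR 7 had an unadjusted p under 0.05, against 11.4% of all genes. Of the 13 genes 1 was below 0, and the list median was 0.11. Markers of other cells that hold the oxidase or the channel were also present, at summed levels far below that of the neutrophil list. In the macrophage list 12 of 13 genes were called lower, among them Cd5l (-1.16), C1qa (-1.01), C1qc (-1.04) and C1qb (-0.93), and the summed level was 797 to 945.8 CPM in KO-labelled and 1505 to 1609 CPM in WT-labelled libraries. Vcam1 and Slc40a1 were its most abundant genes, and Slc40a1 (-0.23, adjusted p = 0.232) was the gene not called. The 11 B lineage markers, cells in which Hvcn1 is also expressed, summed to 26.28 to 27.8 CPM in KO-labelled and 35.21 to 38.81 CPM in WT-labelled libraries, with 0 of 10 tested genes called by edgeR, DESeq2 or limma-voom and 2 at an unadjusted p under 0.05. Cd79b and Ebf1 were the most abundant of them. No marker of the neutrophil, macrophage or B lineage lists had 0 counts in all libraries. The log2 estimates of Hvcn1 (-0.27) and Cybb (-0.07) lay on the same side as these macrophage and B lineage sums. Those of Ncf4 (0.21), Cyba (0.14) and Ncf1 (0.12) lay on the same side as the neutrophil sum. The part of macrophages, B lineage cells or neutrophils in the values of the oxidase transcripts, Irf8 and Prdx1 was not tested. In bulk libraries fewer cells of a type and less RNA per cell cannot be told apart.

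Monocyte markers, cells that share the oxidase with neutrophils, summed to 1607 to 1755 CPM in KO-labelled and 1572 to 1778 CPM in WT-labelled libraries, and the groups overlapped. The most abundant, Ly6c2 and Csf1r, were at 0.06 and -0.01 on the log2 scale (adjusted p = 0.836 and 0.974). Ly6c2 alone averaged 1436 CPM in KO-labelled and 1377 CPM in WT-labelled libraries, so the sum mainly follows that gene. The overlap of the sum says little about the other markers. Of 9 tested genes 7 were below 0, with a list median of -0.33. By edgeR 1 was called lower and 4 had an unadjusted p under 0.05. Neutrophil precursor genes overlapped as well, at 2092 to 2656 CPM in KO-labelled and 2344 to 2638 CPM in WT-labelled libraries. Chil3 alone averaged 2184 CPM in KO-labelled and 2172 CPM in WT-labelled libraries (log2 0.01), so this sum mainly follows Chil3. Of the 10 genes 7 were below 0, with a list median of -0.17 and Tuba1b at -0.28. The 3 tools called 0 of 10, and 2 had an unadjusted p under 0.05 by edgeR. Eosinophil and basophil genes summed to 129.9 to 169.4 CPM in KO-labelled and 159.5 to 191.5 CPM in WT-labelled libraries, with Ccr3 called (-1.15, adjusted p = 0.0183) and Ear2, the most abundant, at 0.01. The summed level of plasma cell genes was 582.2 to 1355 CPM in KO-labelled libraries, highest in KO 2, and 376.9 to 428.5 CPM in WT-labelled libraries. Of 6 tested genes 3 were called higher (Igkc, Igha and Jchain; 0 by DESeq2) and 2 were below 0 (Ighm at -0.20 and Xbp1 at -0.08, not called and named after their values were seen), and Igkc and Igha were the most abundant. Platelet genes had 3 of 8 called lower (Ppbp, Itga2b and Pf4), with 7 of 8 below 0 and a list median of -0.85. By edgeR 5 had an unadjusted p under 0.05. Their summed level was 398 to 436.3 CPM in KO-labelled and 457.2 to 516.3 CPM in WT-labelled libraries. The most abundant, Gp1bb and Itgb3, were at 0.05 and -0.17. In the dendritic cell list, led by H2-Aa and H2-Eb1 in level, 0 of 5 tested genes were called by edgeR, 1 by DESeq2 (Cd74, also named after its values were seen), and 3 had an unadjusted p under 0.05. In the T and NK list, led by Cd3d and Cd4, 0 of 3 were called by any tool and 2 had such a p. In the erythroid list, led by Hba-a2 and Hbb-bs, 0 of 9 were called by any tool and 0 had such a p.

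**Figure D5:**
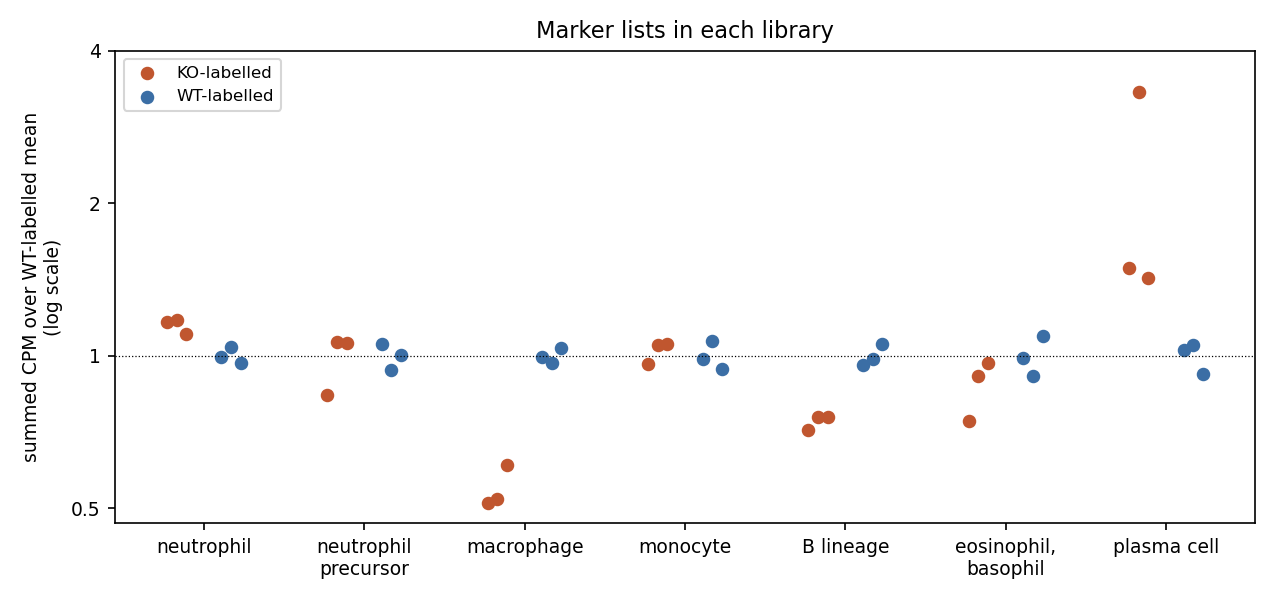
Summed CPM of marker lists in each library, divided by the mean of the WT-labelled libraries (vertical axis, log scale), with KO-labelled libraries left of WT-labelled ones for each list. Macrophage (797 to 945.8 against 1505 to 1609 CPM) and B lineage sums lie lower and plasma cell sums higher in KO-labelled libraries. Monocyte and neutrophil precursor sums overlap, but they mainly follow Ly6c2 and Chil3, the most abundant gene of each list.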

How the data were processed

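Bone marrow neutrophil RNA was sequenced from Lexogen QuantSeq 3′ tag libraries, per the labels' protocols. The authors deposited whole-number counts per Ensembl gene, not scaled between libraries. The submitters' processing notes name RSEM 1.2.3, DESeq2 and mm10, without saying what each did; nothing in the labels states the aligner, annotation release, strandedness or filtering. RSEM can divide reads that fit several genes. Columns were assigned by name and groups by the condition label. GENCODE vM21 (GRCm38) gave names for 51596 of 51789 identifiers; the 193 without one held 0.00812% of counts.

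All 6 libraries were fitted with edgeR 4.0.16 in R 4.3.3 (quasi-likelihood test, TMM factors, filterByExpr at a minimum count of 10 and total of 15, group as the one term). The Benjamini-Hochberg adjustment covered all 10397 tested genes, and calls were made under 0.05. Standard errors are the log2 fold change divided by the square root of F, and 95% intervals use the t quantile at the fit's degrees of freedom. The procedure was tested on simulated counts. Alternatives were DESeq2 1.42.0, limma-voom (limma 3.58.1), other scaling factors, other filters, a replicate block, leaving out each library and leaving out abundant genes. No 2 replicates agreed within sampling noise (chi-square per degree of freedom 4.12 to 6.79). Profile likeness used log2 CPM with a prior count of 2. The members and lists were chosen with earlier results of these data known, and 7 pathway and 11 cell type lists were described by counts and medians with no set test. Named genes are the members, Snph, called list genes (at most 4 per cell type list), the 2 of smallest p in each pathway list, the 2 most abundant of each list, and the 2 most alike per member; others are said to be so, and 1 gene that the rule takes is not reported here.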

Additional observations from a re-analysis of the deposited data

How the results depend on the processing

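Each of the 5 oxidase transcripts kept its direction and stayed short of the threshold in all 16 alternatives, 80 estimates in all, with an adjusted p of 0.0884 to 0.951. The count of called genes was less steady: 107 in the edgeR fit, 174 with DESeq2, 162 with total counts only (144 lower and 18 higher, against 82 and 25) and 287 with no filter on low counts. Leaving out 1 library gave 49 to 97 calls, with 67 without KO 1, 61 without KO 2, 57 without WT 1, 49 without WT 2 and 62 without WT 3. The other alternatives gave 82 to 110. The cause was not tested. Replicate numbers are shared by the groups, but libraries with the same number did not deviate together (r = -0.03, -0.01 and -0.13), and the replicate block gave 92 calls, 84 of them among the 107, and changed no call of the 5 transcripts: -0.07 for Cybb, 0.14 for Cyba, 0.12 for Ncf1, 0.21 for Ncf4 and -0.27 for Hvcn1. Of the genes of other lists named above, Igkc, Igha, Jchain, Ccr3, Pf4 and Itga2b lost their call in at least 1 alternative, and without KO 2 Igkc was at 0.89, Igha at 0.68 and Jchain at 0.83. Counting error limits Hvcn1 more than the other oxidase transcripts, and 3 libraries a group limit all of them.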
